A study of Mus musculus with 8 samples.

Results

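The 9 genes described here encode enzymes of DNA methylation and the EZH enzymes of histone methylation, and were taken by symbol from the 52459 genes of an RNA-sequencing count table of mouse regulatory T (Treg) cells. They are the DNA methyltransferases Dnmt1, Dnmt3a and Dnmt3b, the Dnmt1 cofactor Uhrf1, the methylcytosine oxidases Tet1, Tet2 and Tet3, and the histone methyltransferases Ezh2 and Ezh1. All 9 reached the mean of 10 normalized counts that was required for testing, as did 15419 genes in all. The study asked what store-operated calcium entry, the calcium influx that STIM1 and STIM2 switch on when the endoplasmic reticulum is emptied, contributes to gene expression in Treg cells. RNA was sequenced from 8 libraries, 2 for each of 4 groups, and neither DNA methylation nor histone marks were measured in them.

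In dividing cells, DNMT1 copies methylation onto the new DNA strand, guided by UHRF1, which binds hemimethylated sites behind the replication fork. DNMT3A and DNMT3B set new methylation, and the TET enzymes oxidise methylcytosine as a step towards its removal. EZH2 or EZH1 is the catalytic subunit of Polycomb repressive complex PRC2, which methylates histone H3 at lysine 27. EZH2 is typical of dividing cells and EZH1 of resting cells. In Treg cells, the lineage factor Foxp3 is kept active by a demethylated enhancer in its own locus, and the repressive function of EZH2 is needed for activated Treg cells to hold their identity.

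Every library was made from CD4+CD25hi cells of pooled spleen and lymph nodes of several female mice on a C57BL/6 background, which carried floxed Stim1 and Stim2 genes (Stim1 fl/fl Stim2 fl/fl) and were heterozygous for Foxp3-YFPcre. Cre recombinase is driven by the Foxp3 promoter on the X chromosome, so that X inactivation leaves both kinds of Treg cell in each female. WT cells were those without YFPcre, and Stim1/2-deficient cells were those with it, so that both genotypes carried the floxed genes and came from the same kind of animal. The age of the mice is not given in the sources used here. Genotype cannot be told apart from expression of the YFPcre allele. Cells were left unstimulated or kept for 16 h on plates coated with anti-CD3 and anti-CD28 antibodies, each at 1 µg/ml. The unstimulated libraries shared a sequencing lane and the stimulated libraries shared another, so that stimulation cannot be told apart from lane, whereas each lane held both genotypes. WT unstimulated libraries are numbered replicates 3 and 4, and every other group has replicates 1 and 2.

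Values are normalized counts, which are reads per gene divided by 1 size factor per library. Between 11851853 and 16306540 reads of a library fell on genes, and a single read was worth 0.759 to 1.48 normalized counts. Log2 fold changes come from limma on log2 values after adding 1, with a spread shared by the 4 groups. To be called, a gene had to change more than 1.5-fold and have a p under 0.05 after Benjamini-Hochberg adjustment over all 15419 genes of a comparison. Pools of animals were the replicates, and standard deviations (SD) describe the spread between the 2 pools of a group. The p-values and intervals of limma rest on the shared spread, which is also drawn towards that of genes of like level. They do not measure the spread within a single group.

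The genes to be deleted, Stim1 and Stim2, were not called lower in either state. Stim1 had 1139 and 1377 normalized counts in unstimulated WT and 1538 and 1868 in the libraries labelled Stim1/2-deficient (log2 fold change 0.44, limma adjusted p = 0.236), and after stimulation 645 and 673 against 552 and 642. Stim2 had 906 and 908 against 904 and 744 in unstimulated cells, and 665 and 782 against 620.2 and 696 after stimulation. Counts over a whole gene do not show a deleted exon, and the libraries are therefore named by their label, as deficient-labelled, in every comparison. The study reported that YFPcre-positive Treg cells of such females lacked store-operated calcium entry. By RT-PCR, it also reported loss of Stim1 and Stim2 expression in Treg cells of male mice. Summed Treg-defining transcripts (Cd3e, Cd4, Foxp3, Il2ra, Ctla4, Ikzf2 and Tnfrsf18, all 7 detected) were 93568 and 87136 in unstimulated WT and 40591 and 48769 in deficient-labelled libraries, with 6 of 7 below WT. Unstimulated deficient-labelled replicate 1 stood apart by transcripts of other cells. Its 8 B cell markers summed to 2755, against 264 and 279 in WT and 609 in replicate 2, and its 9 myeloid markers to 6971, against 371, 375 and 1203. Of the markers, 6 of 8 for B cells, 8 of 9 for myeloid cells, 5 of 6 for CD8 T and NK cells, 6 of 6 for neutrophils and 2 of 6 for erythroid cells were above WT in both deficient-labelled libraries. Of all genes tested, 26.5% lay above WT in this way and 27.1% below, and the erythroid count was near that share. Summed CD8 T and NK cell markers were 335 and 281 in WT and 913 and 307 in deficient-labelled libraries, and neutrophil markers 136 and 93.1 against 735 and 342. The myeloid markers C1qa and C1qc were at 0 in both unstimulated WT libraries. Results in unstimulated cells are also given without this library for some of the genes and lists, but not for every gene named.

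Promoter sequences are shown first, because the 3 members that were lower in every deficient-labelled library than in the WT libraries of the same state, Dnmt1, Uhrf1 and Ezh2, were also the 3 members with a match to the E2F binding sequence near a transcription start. Of all genes tested, 11.8% were lower in both states in this way. RefSeq windows of 300 bases, from 250 before to 50 after a start, were read for all 9 members (14 windows, GRCm38.p6). E2F factors switch on genes of S phase, and their sites were searched on both strands as the 4 words TTTCCCGC, TTTCGCGC, TTTGCCGC and TTTGGCGC, which did not overlap each other in the members. A match was found in 1 of 3 windows of Dnmt1, 1 of 2 windows of Uhrf1 and the single window of Ezh2. By comparison, 2.26% of all 32851 windows and 2.6% of genes held a match, as did 9 of 24 genes of an S phase list for which a window was found. The words were chosen with the expression results known, so that these shares test nothing. All 4 words contain CG, and the windows compared were not matched for CG content or for their number per gene. A match is a description of letters, not of a bound site. In the following stretches, read 5′ to 3′ on the strand of the gene, capitals mark E2F words and CCAAT boxes, the latter counted in 37.4% of all windows.
Dnmt1, bases -219 to -212 in capitals, chr9:20952824-20952853, minus strand: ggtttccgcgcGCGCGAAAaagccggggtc
Dnmt1, bases 34 to 41 in capitals, chr9:20952574-20952601, minus strand: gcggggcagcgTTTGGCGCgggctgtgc
Uhrf1, bases -200 to -51, chr17:56304113-56304262, plus strand: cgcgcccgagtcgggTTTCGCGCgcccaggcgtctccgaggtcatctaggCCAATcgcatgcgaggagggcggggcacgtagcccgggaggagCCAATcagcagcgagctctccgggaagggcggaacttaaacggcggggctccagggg
Ezh2, bases -100 to 14, chr6:47595017-47595130, minus strand: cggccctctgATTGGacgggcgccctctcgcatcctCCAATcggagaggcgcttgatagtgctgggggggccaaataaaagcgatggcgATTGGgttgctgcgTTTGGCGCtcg

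In the Uhrf1 stretch the E2F word lies at -185 to -178 and the CCAAT boxes start at -150 and -107. In that of Ezh2 the E2F word lies at 4 to 11, next to a CCAAT box at -11 to -7 on the opposite strand. The other window of Uhrf1 held 3 CCAAT boxes without an E2F word. The Dnmt1 window with E2F words held 3 CCAAT boxes, outside the stretches shown, and another Dnmt1 window held 5 without an E2F word. None of the windows of Dnmt3a, Dnmt3b, Tet1, Tet2, Tet3 and Ezh1 held any of the 4 words.

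The 9 genes were expressed at very different levels. Levels between genes are compared as normalized counts per kb, with the summed exon length of GENCODE vM1 as the divisor, so that a gene with many alternative exons, such as Dnmt3a, is placed low. In unstimulated WT cells, Dnmt1 (592 ± 146 per kb, SD, n = 2) and Tet2 (527 ± 79.0) were highest and overlapped each other. They were followed by Ezh2 (279 ± 45.2), Tet3 (189 ± 2.23) and Dnmt3a (170 ± 14.3), each apart from its neighbours. Uhrf1 (98.9 ± 21.7) and Ezh1 (97.9 ± 14.1) overlapped, as did Dnmt3b (31.3 ± 8.10) and Tet1 (23.8 ± 2.79) at the lower end. After stimulation of WT cells, Ezh2 was first with 763 ± 32.8 per kb and Tet1 last with 6.21 ± 1.22, and all neighbours in the order were apart. In unstimulated deficient-labelled cells, Tet2 (458 ± 55.4) led, Dnmt1 (325 ± 45.8) and Tet3 (298 ± 33.5) overlapped behind it, and Uhrf1 was last with 15.9 ± 9.19 per kb. In stimulated deficient-labelled cells, Tet2 (469 ± 20.1), Ezh2 (452 ± 145) and Dnmt1 (394 ± 118) were first, without a gap between neighbours.

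**Figure D1:**
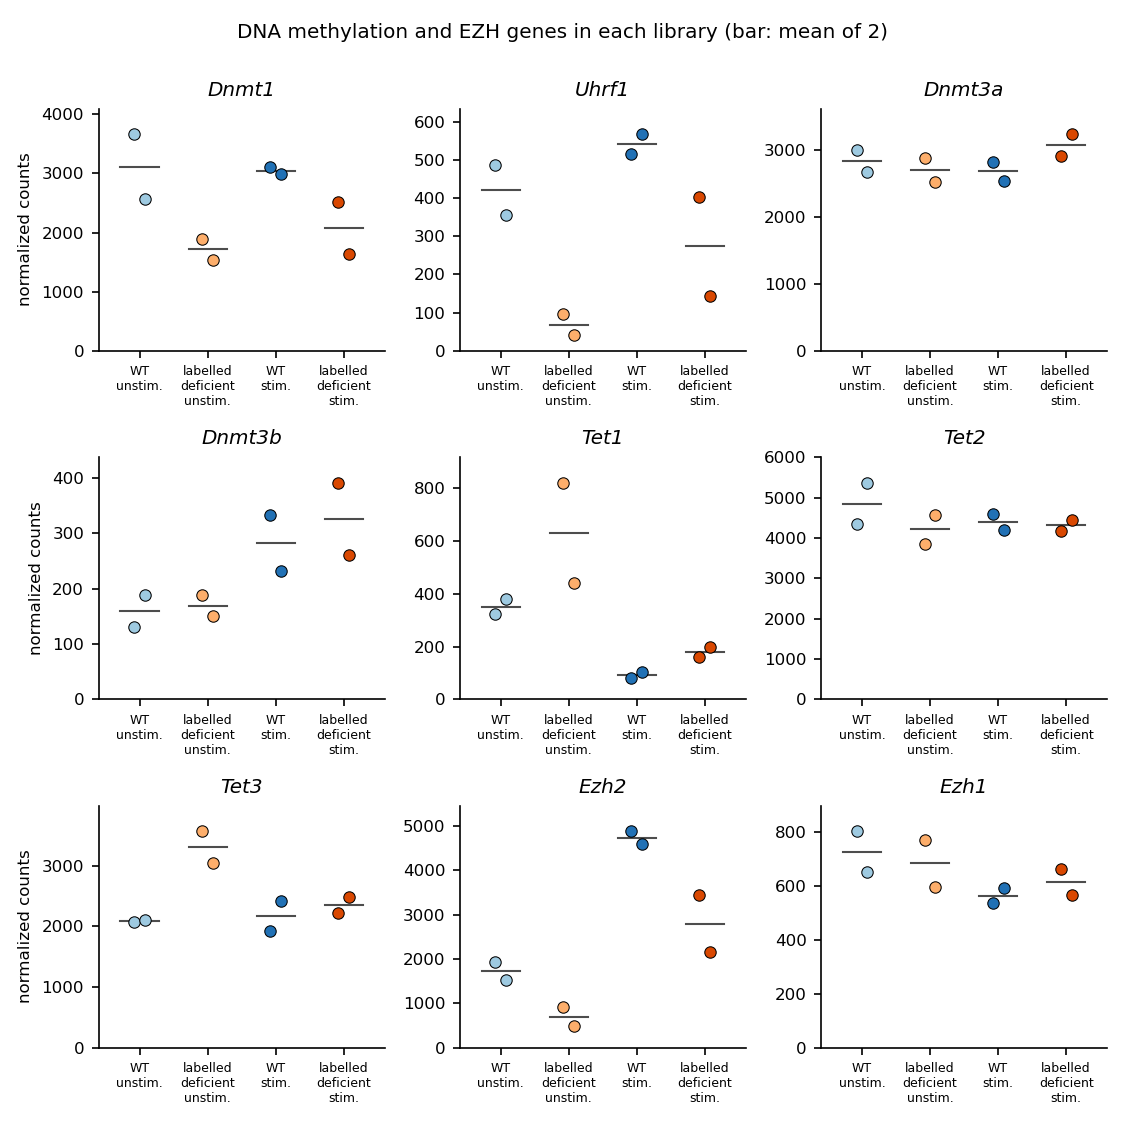
Normalized counts of the 9 genes in each of the 8 libraries, a point per library and a bar for the mean of 2, in WT and deficient-labelled cells, unstimulated or stimulated. Dnmt1, Uhrf1 and Ezh2 are below WT in both deficient-labelled libraries of either state, and Tet1 falls and Ezh2 rises with stimulation in both genotypes.

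The first comparison asked how the genes differed between genotypes in unstimulated cells. Of the 9 genes, 2 were called lower in deficient-labelled cells, Uhrf1 and Ezh2, where 3.35% of all genes tested were called lower. None of the 9 (0 genes) was called higher, where 1.38% of all genes were, and at an unadjusted p under 0.05 and over 1.5-fold limma gave 3 lower genes, Dnmt1, Uhrf1 and Ezh2, and 2 higher genes, Tet1 and Tet3, where 11.1% and 8.68% of all genes reached it. By position of the libraries alone, 3 genes lay below WT in both deficient-labelled libraries and 2 above, where 27.1% and 26.5% of all genes did so.

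Uhrf1, the reader of hemimethylated DNA, differed most. It had 487 and 356 normalized counts in WT and 95.4 and 40.1 in deficient-labelled libraries, where the lower values stood for 91 and 30 reads. The groups did not overlap, and the higher deficient-labelled value lay well under the lower WT value. Uhrf1 was 6.63-fold lower (log2 fold change -2.73, standard error 0.50, limma adjusted p = 0.0189). Without deficient-labelled replicate 1 the log2 fold change was -3.34, and without replicate 2 it was -2.11, both called. It was not called without WT replicate 3 (-2.50, limma adjusted p = 0.250) or WT replicate 4 (-2.95, limma adjusted p = 0.0864), where the spread of the lone WT library was taken from the other groups.

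Ezh2 had 1930 and 1533 normalized counts in WT and 910 and 487 in deficient-labelled libraries. Both deficient-labelled libraries were below both WT libraries, and the lowest value was that of replicate 2. Summed B cell and myeloid markers were above WT in both deficient-labelled libraries and highest in replicate 1, and their part in the result was not tested. It was 2.58-fold lower (log2 fold change -1.37, standard error 0.31, limma adjusted p = 0.036), and -1.82 without deficient-labelled replicate 1. The call was close to the threshold. It was lost in 9 of 17 alternatives, among them edgeR (log2 fold change -1.29, adjusted p = 0.061), the fit to the 4 unstimulated libraries alone (limma adjusted p = 0.0762) and leaving out deficient-labelled replicate 2 (-0.92, limma adjusted p = 0.0632), WT replicate 3 (-1.20, limma adjusted p = 0.356) or WT replicate 4 (-1.53, limma adjusted p = 0.114).

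Dnmt1, the maintenance methyltransferase, had 3659 and 2572 normalized counts in WT and 1883 and 1543 in deficient-labelled libraries. The groups did not overlap, but the WT libraries differed more from each other than the deficient-labelled ones. The log2 fold change of -0.85 (standard error 0.25) missed the threshold (limma adjusted p = 0.081), and DESeq2 on the recovered reads called it (adjusted p = 0.0274). The alternatives ranged from -1.10 to -0.59 and none turned the sign. Without deficient-labelled replicate 1 the log2 fold change was -0.99, and without replicate 2 it was -0.70.

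The methyltransferases that set new marks gave values near 0. Dnmt3a had 2999 and 2662 normalized counts in WT and 2882 and 2523 in deficient-labelled libraries. Its log2 fold change of -0.07 (95% interval -0.45 to 0.32) became 0.05, 0.10 and 0.05 with equal totals, equal upper quartiles and quantile normalization, so that it has no direction. Dnmt3b had 131 and 189 against 188 and 150, a log2 fold change of 0.09 with a wider interval of -0.63 to 0.81. Neither gene separated the genotypes, and the interval of Dnmt3a excluded the sizes of change measured for Uhrf1, Ezh2 and Dnmt1.

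Among the oxidases, Tet3 had 2077 and 2112 normalized counts in WT and 3563 and 3038 in deficient-labelled libraries. The WT values were close together and both deficient-labelled values lay above them. The log2 fold change of 0.65 (standard error 0.19) was not called (limma adjusted p = 0.0761), whereas it was with equal upper quartiles (0.81, limma adjusted p = 0.0412) and by DESeq2 (0.67, adjusted p = 0.0336).

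Tet1 had 322 and 380 normalized counts in WT and 821 and 442 in deficient-labelled libraries. The highest value was that of deficient-labelled replicate 1, the library in which B cell and myeloid markers were also highest, and their part in the result was not tested. This amounted to 0.78 on the log2 scale (standard error 0.33, limma adjusted p = 0.194). It was 0.34 without that library and 1.23 without replicate 2 (limma adjusted p = 0.047), so that a single library set its size. For Tet3 the corresponding values were 0.54 and 0.77, the latter called (limma adjusted p = 0.0379).

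Tet2, with 4336 and 5364 normalized counts in WT and 3857 and 4578 in deficient-labelled libraries, overlapped between genotypes (log2 fold change -0.20, 95% interval -0.60 to 0.20). Ezh1 had 803 and 654 against 772 and 597 and overlapped too (-0.09, interval -0.59 to 0.40, and 0.03 to 0.07 with equal totals, equal upper quartiles or quantile normalization). A 2.58-fold difference, as measured for Ezh2, lay outside the interval of either gene.

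The second comparison asked the same after stimulation. None of the 9 genes (0 lower, 0 higher) was called with limma, where 0.11% of all genes were called lower and 0.162% higher. An unadjusted p under 0.05 and 1.5-fold were passed by 3 lower genes, Dnmt1, Uhrf1 and Ezh2, and 1 higher gene, Tet1, where 6.95% and 5.6% of all genes did so. edgeR and DESeq2 called 0 of the 9 in either direction, whereas limma with the replicate number as a block called Ezh2 lower (adjusted p = 0.0467). Both deficient-labelled libraries lay below WT for 3 genes and above for 2, where 23.1% and 24.3% of all genes did so.

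Uhrf1 had 515 and 567 normalized counts in stimulated WT and 404 and 144 in deficient-labelled libraries. Ezh2 had 4873 and 4585 against 3433 and 2164. Dnmt1 had 3100 and 2993 against 2513 and 1632. In all 3 genes the WT libraries were close together, both deficient-labelled libraries were lower, and replicate 2 was the lowest.

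The log2 fold changes were -1.16 for Uhrf1 (95% interval -2.26 to -0.06), -0.79 for Ezh2 (-1.47 to -0.12) and -0.59 for Dnmt1 (-1.14 to -0.04). The limma adjusted p over all genes was 0.335 for Uhrf1, 0.277 for Ezh2 and 0.322 for Dnmt1. Without deficient-labelled replicate 2 they were -0.42, -0.46 and -0.28, and without replicate 1 -1.90, -1.13 and -0.90, so that the size of each rested on that pair of libraries. B cell markers summed to 1344 and 290 in these libraries and to 870 and 156 in stimulated WT, and myeloid markers to 422 and 344 against 265 and 116, and their part was not tested.

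Tet1 had 78.7 and 104 normalized counts in stimulated WT and 160 and 198 in deficient-labelled libraries, so that the groups stood apart (log2 fold change 0.96, standard error 0.33, limma adjusted p = 0.213). Dnmt3a, with 2814 and 2541 against 2909 and 3230, also lay above WT in both libraries, by 0.20 (interval -0.19 to 0.58). The other 4 genes overlapped between genotypes, with log2 fold changes of 0.20 for Dnmt3b, 0.12 for Tet3, 0.12 for Ezh1 and -0.02 for Tet2. Dnmt3b had 333 and 232 against 391 and 260, and Ezh1 537 and 593 against 664 and 566. Tet2 had 4591 and 4187 against 4184 and 4445, and Tet3 1927 and 2425 against 2216 and 2482.

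**Figure D2:**
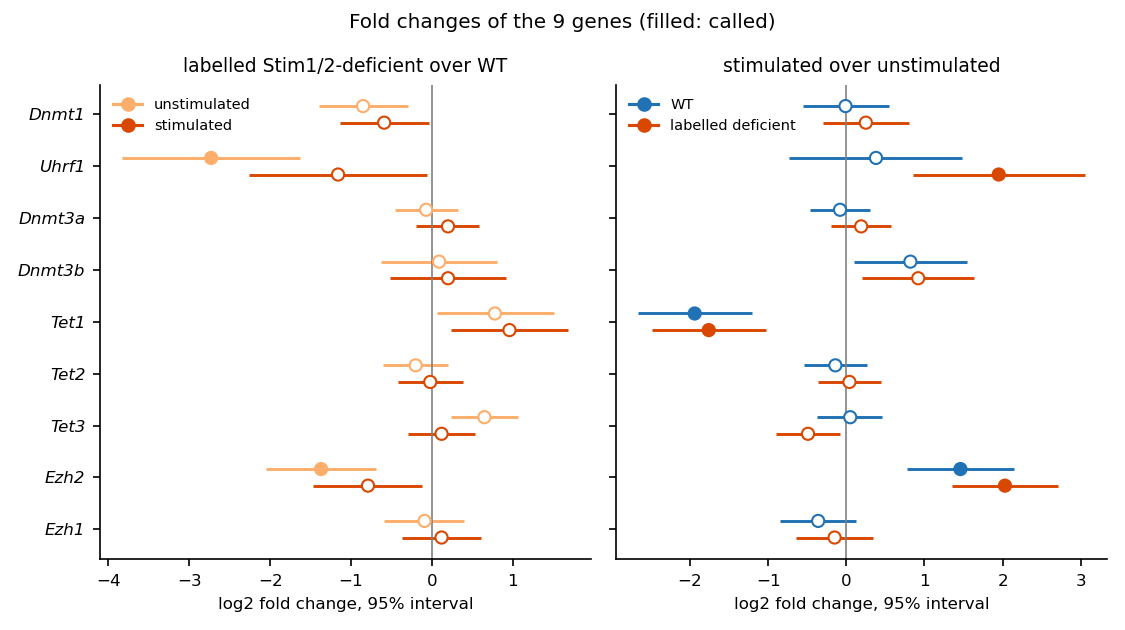
Log2 fold changes with 95% intervals of limma for the 9 genes, by genotype (left) and by stimulation (right), with called changes filled. Uhrf1 and Ezh2 are called lower in unstimulated deficient-labelled cells, at -2.73 and -1.37, and the intervals of Dnmt3a, Dnmt3b, Tet2 and Ezh1 span 0 in both genotype comparisons.

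Whether stimulation changed the genotype difference was tested as an interaction. For Uhrf1 it was 1.57 on the log2 scale (95% interval 0.01 to 3.13, limma unadjusted p = 0.0485, adjusted p = 0.609). For Tet3 it was -0.53 (interval -1.12 to 0.05), and for Ezh2 0.57 (interval -0.39 to 1.53). None of the 9 genes was called, as was true of all genes, 0% lower and 0% higher. An unadjusted p under 0.05 and 1.5-fold were passed by 543 and 704 genes, and DESeq2 called 13 and 34. Without unstimulated deficient-labelled replicate 2, limma called 17 genes lower and 179 higher. The calls of Uhrf1 and Ezh2 in unstimulated cells are therefore not shown to differ from their values after stimulation.

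The third comparison set stimulated against unstimulated libraries within each genotype, which lane and time in culture share. In WT cells 1 of the 9 genes, Ezh2, was called higher and 1, Tet1, lower, where 10.2% and 13.1% of all genes were. With equal totals, 4258 genes were called higher and 974 lower in WT cells in place of 1580 and 2013. In deficient-labelled cells Ezh2 and Uhrf1 were called higher and Tet1 lower, where 13.0% and 12.0% of all genes were, and equal totals gave 3791 higher and 1077 lower in place of 1997 and 1855.

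Ezh2 rose from 1731 ± 280 to 4729 ± 203 normalized counts in WT cells, 2.75-fold (log2 fold change 1.46, limma adjusted p = 0.00882). In deficient-labelled cells it rose from 698.8 ± 299 to 2798 ± 897 (SD, n = 2), 4.09-fold (2.03, limma adjusted p = 0.00178). In each genotype both stimulated libraries lay above both unstimulated ones. With a WT library left out, the WT change stayed between 1.29 and 1.62, but was called only without unstimulated replicate 3.

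Tet1 fell from 350.6 ± 41.0 to 91.37 ± 17.9 normalized counts in WT cells, 3.83-fold (log2 fold change -1.94, limma adjusted p = 0.00354). In deficient-labelled cells it fell from 631.6 ± 268 to 178.6 ± 26.8, 3.38-fold (-1.76, limma adjusted p = 0.00475). It was called under all 17 alternatives run in WT and all 18 in deficient-labelled cells, and without unstimulated deficient-labelled replicate 1 the change was -1.31. Every stimulated library lay below every unstimulated library of its genotype.

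Uhrf1 rose in deficient-labelled cells from 67.75 ± 39.1 to 274.3 ± 184 normalized counts (log2 fold change 1.95, limma adjusted p = 0.0179), and was not called without unstimulated replicate 2 (1.33) or stimulated replicate 1 (1.21). In WT cells it had 421.4 ± 92.4 and 541.2 ± 36.8 (0.38, 95% interval -0.73 to 1.48). Dnmt3b lay higher after stimulation in every library of both genotypes, 1.76-fold in WT (limma adjusted p = 0.0922) and 1.90-fold in deficient-labelled cells (limma adjusted p = 0.0608), without a call. It was called in both with equal totals, a scaling that moved the median of all genes by 0.51 and 0.38. It was also called in WT with the 4-library fit (limma adjusted p = 0.0493), and in deficient-labelled cells by DESeq2 (adjusted p = 0.0462), among genes with a mean of at least 100 (limma adjusted p = 0.0479) and with the replicate number as a block (limma adjusted p = 0.0494). Tet3 had -0.49 in deficient-labelled cells (limma adjusted p = 0.0788) and 0.05 in WT.

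Dnmt1 had a log2 fold change of -0.01 with stimulation in WT cells, which became 0.51, 0.06 and 0.39 with equal totals, equal upper quartiles and quantile normalization, and 0.25 in deficient-labelled cells. Dnmt3a, Tet2 and Ezh1 lay between -0.36 and 0.19 in both genotypes, and their intervals included 0.

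Shares within each family were computed per library from counts per kb, and do not depend on the size factors, whereas the family sums do. Ezh2 made up 74.3% and 73.8% of Ezh2 and Ezh1 together in unstimulated WT cells and 58.6% and 49.5% in deficient-labelled cells. After stimulation it made up 91.6% and 90.3% in WT and 86.1% and 82.1% in deficient-labelled cells. The share was thus lower in the deficient-labelled libraries of both states and higher after stimulation, and the 4 groups did not overlap. The sum of both genes ran from 159 to 419 per kb in unstimulated and from 425 to 858 per kb in stimulated libraries.

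Dnmt1 held 77.2% and 71.3% of the summed methyltransferases in unstimulated WT and 63.0% and 61.8% in deficient-labelled cells. After stimulation its share was 71.5% and 74.2% against 65.5% and 55.9%. The complement was mostly Dnmt3a, at 20.0% and 23.3% in unstimulated WT and 30.5% and 32.0% in deficient-labelled cells. Dnmt3a itself was not called by genotype in either state. The divisor was 16642 bases of exon for Dnmt3a and 5264 for Dnmt1, so that the Dnmt3a share is placed low.

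The summed TET genes ran from 665 to 802 per kb over all 8 libraries under the size factors used. Equal totals would place stimulated libraries higher, as they moved the median of all genes by 0.51 in WT and 0.38 in deficient-labelled cells. Tet2 held most of the sum, with 69.2% and 72.9% in unstimulated WT and 52.6% and 62.1% in deficient-labelled cells. Tet3 held 27.5% and 23.8% against 40.4% and 34.2%. Tet1 held 3.21% and 3.23% against 7.01% and 3.75%, and 0.789% to 1.86% after stimulation.

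**Figure D3:**
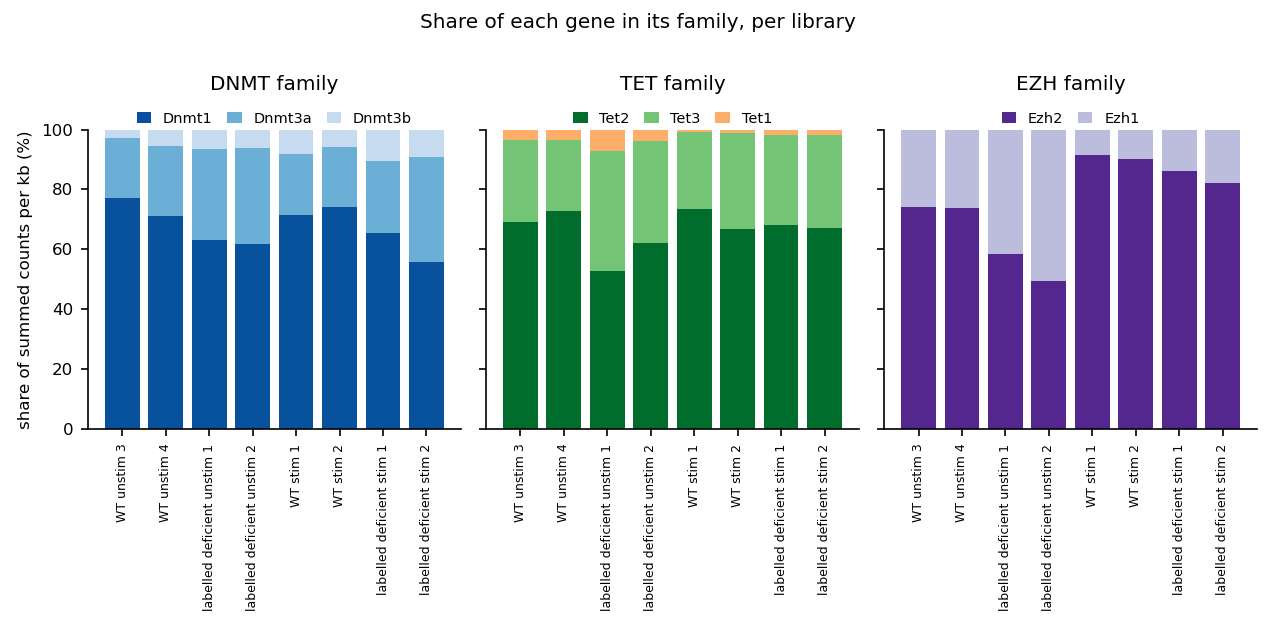
Share of each gene in the summed normalized counts per kb of its family, as stacked bars for each of the 8 libraries. Ezh2 makes up 49.5% to 74.3% of the EZH pair in unstimulated libraries and 82.1% to 91.6% in stimulated ones, and the Dnmt1 share is lower in deficient-labelled than in WT libraries of the same state.

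Since Dnmt1, Uhrf1 and Ezh2 are known to be used in dividing cells, they were set beside 30 genes of S phase and proliferation, of which 29 were tested. This list was lower in unstimulated deficient-labelled cells, with 17 genes called lower and 0 higher and a median log2 fold change of -1.79, where the median of all genes was -0.01. Without deficient-labelled replicate 1 the count was 15, without replicate 2 it was 13, and without WT replicate 3 or 4 it was 0 or 2, with medians of -1.90 to -1.51 throughout. After stimulation the median was -0.77 with 0 calls, and 1 library decided the count, which was 12 without deficient-labelled replicate 1 and 0 without replicate 2 (median -0.35). In bulk RNA, fewer cycling cells and less RNA per cell cannot be told apart.

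The 4 called genes of the list with the largest change were Gins2 of the replicative helicase (log2 fold change -2.58), the proliferation marker Mki67 (-2.55), topoisomerase Top2a (-2.55) and Chaf1a, a subunit of the chromatin assembly factor at the fork (-2.48). Gins2 had 379 and 304 normalized counts in WT and 62.9 and 49.4 in deficient-labelled libraries. Chaf1a had 376 and 214 against 67.1 and 37.4. Mki67 was highest in absolute terms, with 17091 and 13862 against 4924 and 1400.

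Summed over the list, unstimulated WT libraries held 56155 and 45317 normalized counts and deficient-labelled libraries 18089 and 12097. After stimulation the sums were 46265 and 44969 in WT and 30154 and 17122 in deficient-labelled libraries. In both states replicate 2 was the lowest, as it was for Dnmt1, Uhrf1 and Ezh2. Mki67 and Top2a carry much of the sum.

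Relative to this sum, the log2 difference between deficient-labelled and WT cells was -0.96 for Uhrf1 in the unstimulated state, 0.40 for Ezh2 and 0.92 for Dnmt1, against -1.77 for the sum itself. Uhrf1 was therefore the only one of the 3 whose difference exceeded that of the list sum, and that of Dnmt1 was the smallest. In stimulated cells the relative values were -0.15, 0.21 and 0.42, against -1.01 for the sum. Ezh2 rose with stimulation relative to the sum as well, by 1.60 in WT and 1.41 in deficient-labelled cells. The relative values carry no test, as the list was chosen with earlier results of these data known.

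**Figure D4:**
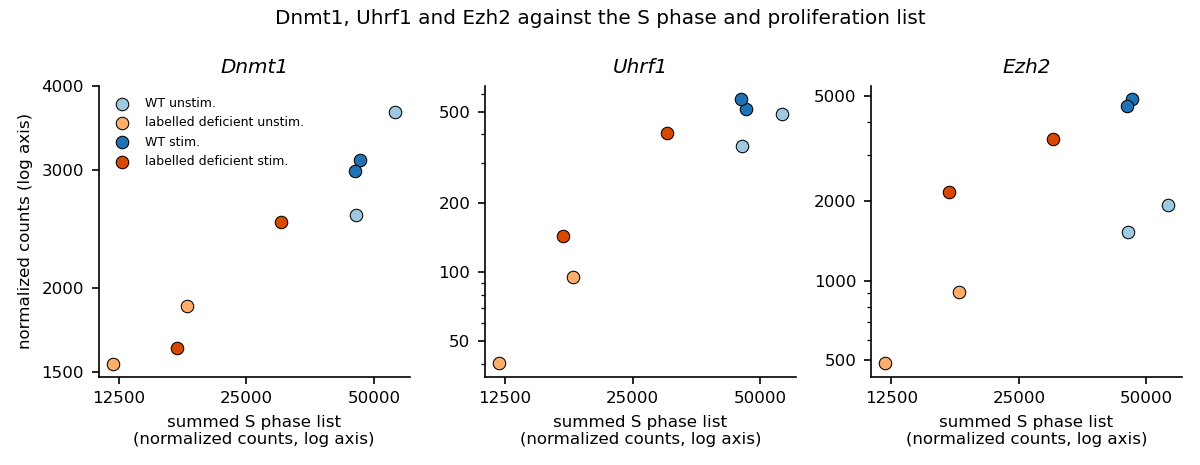
Normalized counts of Dnmt1, Uhrf1 and Ezh2 against the summed S phase and proliferation list in each library, on log axes, coloured by group. The unstimulated deficient-labelled libraries, with sums of 18089 and 12097, lie at the lower left of the panels of Uhrf1 and Ezh2, and stimulated libraries have more Ezh2 at a like sum.

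E2F factors and the pocket proteins that restrain them gave a mixed picture. In unstimulated deficient-labelled cells 4 of 11 were called lower, with a list median of -0.59, and 0 higher. They were the late repressors E2f8 (log2 fold change -2.88) and E2f7 (-2.46) and the activators E2f2 (-1.31) and E2f3 (-1.18). E2f7 had 210 and 179 normalized counts in WT and 35.6 and 33.4 in deficient-labelled libraries, and was also called lower after stimulation (-1.96, limma adjusted p = 0.0446), with 185 and 225 against 54.8 and 49.0. The remaining 7 genes of the list were not called in either state, and in unstimulated cells the list had 0 calls without WT replicate 3 or WT replicate 4. In stimulated cells it had 3 lower calls without deficient-labelled replicate 1 and 0 when any other stimulated library was left out.

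Partners of Dnmt1 and Uhrf1 in the upkeep of methylation were divided. Hells, a chromatin remodeller that methylation of packed DNA depends on, had 1386 and 1185 normalized counts in unstimulated WT and 348 and 194 in deficient-labelled libraries (log2 fold change -2.30, limma adjusted p = 0.0287). Cdca7, which recruits HELLS, had 282 and 263 against 97.5 and 48.1 (-1.97, limma adjusted p = 0.0189). These were the only calls among 8 tested genes of the list, with a median of -0.55. The list had 2 calls without deficient-labelled replicate 2, 3 without replicate 1, and 0 without WT replicate 3 or WT replicate 4. After stimulation 0 genes of the list were called by genotype, and 1 without deficient-labelled replicate 1. Hells was then at -1.14 and Cdca7 at -1.02.

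Other PRC2 subunits contained 1 call among 11 tested genes, the histone-binding Rbbp7, with 2554 and 2059 normalized counts in unstimulated WT and 1179 and 1413 in deficient-labelled libraries (log2 fold change -0.83, limma adjusted p = 0.0374). The list median was -0.46, and -0.19 without deficient-labelled replicate 1. After stimulation Rbbp7 was at -0.04, and 0 subunits were called. Without deficient-labelled replicate 2, 4 subunits were called lower in unstimulated cells, and without WT replicate 3 or WT replicate 4 there were 0. PRC1 subunits, which act on chromatin marked by PRC2, had 0 calls among 19 by genotype in either state, with medians of -0.11 and 0.04. In unstimulated cells 1 was called higher without deficient-labelled replicate 1 and 1 lower without replicate 2. The one furthest from 0 in unstimulated cells was Pcgf2, at -1.30 (limma adjusted p = 0.307).

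The remaining lists gave few genotype calls, although in stimulated cells 3 genes of demethylation and repair were called lower and 1 of methyl donor supply higher without deficient-labelled replicate 1. Of 17 genes of demethylation and repair, Parp1, a sensor of strand breaks, was called lower in unstimulated cells with 2040 and 1417 against 984 and 873 normalized counts (log2 fold change -0.87, limma adjusted p = 0.0484), and the list median was 0.02. Among 10 methyl-CpG readers 0 were called, and Mbd2 was nearest with -0.72 (limma adjusted p = 0.0502). Among 9 genes of methyl donor supply 0 were called, and Ahcy, which clears the product of methyl transfer, was at -0.86 (limma adjusted p = 0.140). The H3K27 demethylase Kdm6b had 4687 and 4597 normalized counts in WT and 1914 and 4550 in deficient-labelled libraries (-0.65, limma adjusted p = 0.271). Replicate 1 alone lay far from WT. Without that library the log2 fold change of Kdm6b was -0.03, and without replicate 2 it was -1.28. Parp1 was the only call of its list, which had 0 without WT replicate 3 or WT replicate 4, and 1 methyl-CpG reader was called lower when either deficient-labelled library was left out.

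Of 6 Treg genes known for regions that are unmethylated in Treg cells, all 6 lay below WT in both unstimulated deficient-labelled libraries. Of these, 3 were called lower. Among all genes tested, 27.1% lay below WT in this way and 3.35% were called lower. Ctla4, an inhibitory receptor, had 37403 and 35119 normalized counts in WT and 6338 and 17333 in deficient-labelled libraries (log2 fold change -1.79). Ikzf2, a transcription factor, had 18953 and 19707 against 8398 and 9233 (-1.13). Tnfrsf18, a costimulatory receptor, had 1666 and 1532 against 481 and 964 (-1.23). For each of these 3 genes the lower value was that of deficient-labelled replicate 1. B cell and myeloid markers were highest in that library, and their part in the result was not tested. The list median was -1.06, and -0.90 without deficient-labelled replicate 1, where 2 genes were called. Without WT replicate 3 or WT replicate 4 there were 0 calls, and after stimulation 0 were called. All genes of this list but Ikzf4 also stand in the list of Treg-defining transcripts, so that the 2 lists are not independent. Methylation of these genes was not measured here.

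**Figure D5:**
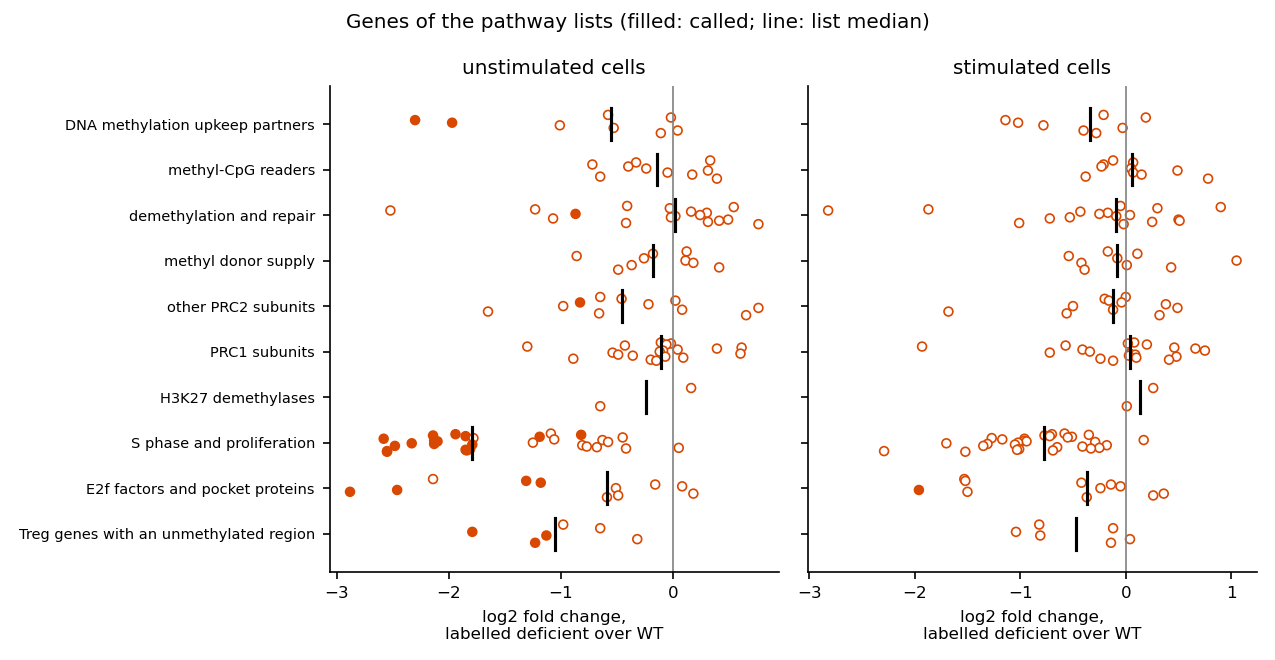
Log2 fold changes of deficient-labelled over WT for every tested gene of the 10 pathway lists, in unstimulated (left) and stimulated cells (right), with called genes filled and list medians as black lines. The S phase list lies lowest of the larger lists in both panels, with medians of -1.79 and -0.77.

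With stimulation, genes of the same lists were called in both directions, and those named here were chosen after their values were seen. Cdca7 rose in WT and deficient-labelled cells (log2 fold change 1.96 and 2.92), as did the histone methyltransferase Setdb1 (0.87 and 0.70). Uhrf2, the relative of Uhrf1, fell in WT cells (-1.06), and Hells (1.68) and Trdmt1 (1.26) rose in deficient-labelled cells. Among PRC2 subunits, Epop rose (1.86 and 1.95) and Phf1 fell (-1.10 and -1.37) in both genotypes, and Rbbp7 rose in deficient-labelled cells (1.24). Both H3K27 demethylases fell in both genotypes, Kdm6b by 1.96 and 1.30 and Kdm6a by 1.20 and 1.10 on the log2 scale. Gadd45a and Gadd45b, stress-induced genes linked to demethylation, fell in both, with log2 fold changes of -2.59 and -3.10 for the former and -2.37 and -2.02 for the latter. The S phase list had 2 higher calls in WT cells, Mcm2 and Gins3, and 10 in deficient-labelled cells, with medians of 0.36 and 0.99.

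The genes whose log2 values ran most like each member over the 8 libraries were sought among the 9146 genes whose mean reached 100 normalized counts. The libraries form 4 groups, so that any gene following the groups correlates, and Pearson's r is given as a description. Closest to Ezh2 were Tfdp1, the dimer partner of E2F factors (r = 0.997), Cdca7 (0.996) and Prkar2a (0.996). Closest to Uhrf1 were the primase subunit Prim1 (0.994), the kinetochore gene Kntc1 (0.994) and Slc25a4 (0.993). For Dnmt1 they were Chaf1a (0.983), Hprt (0.981) and Nsd2 (0.976).

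For Tet1 the closest were Txndc16 (r = 0.995), Jun (0.984) and the calcium channel gene Orai2 (0.984), and for Tet3 Ttll3 (0.975), Rps13 (0.969) and Nisch (0.961). Dnmt3a was closest to Hgs (0.948), Nudt16 (0.922) and Dnajc14 (0.915), Dnmt3b to Fpgt (0.963), Gm45509 (0.957) and AI314180 (0.956), and Ezh1 to Ctsd (0.966), Tpp1 (0.956) and Itga2 (0.921). Tet2, which differed little between libraries, had no r above 0.875, that of Prkab2, followed by Brox (0.867) and Slc35e2 (0.858). Among the members themselves, Dnmt1 and Uhrf1 (0.907) and Uhrf1 and Ezh2 (0.879) ran most alike, and Tet1 ran opposite to Ezh2 (-0.884).

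Some members overlap other genes, and whether reads were counted by strand is not settled by the sources used here. Dnmt3aos, an antisense-named transcript within Dnmt3a, had 2.95 to 39.7 normalized counts, and B230319C09Rik within Tet3 had 32.37 to 119.11, both far below their host genes. Ezh2 shares 62 bases with F830010H11Rik, which was not analysed here. The spans of Tet1 and Gm51805 share 21800 bases, and those of Dnmt3a and Gm31623 share 15302. Neither Gm51805 nor Gm31623 is listed in the count table, and their part in the counts of Tet1 and Dnmt3a was not tested. No overlapping gene was found for Uhrf1, Tet2, Dnmt3b or Ezh1.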

How the data were processed

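RNA of CD4+CD25hi Treg cells was sequenced in 8 libraries, grouped by the genotype and stimulation given in the labels. The deposited table holds a signal per gene, the read count after the authors had scaled it by a size factor of its library. Whole reads were recovered from 100% of these values within 0.01 normalized counts. The sources disagree on how they were made. The methods name NCBIM37, Bowtie, Picard and HTSeq, and the submitters' processing notes name mm10, bcl2fastq 1.8.4 and STAR 2.7, and both name DESeq2. The methods and the labels also differ on whether the library kit was stranded. No coordinates of the counted genes are therefore given, and those of the promoter stretches are from RefSeq windows on GRCm38.p6.

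After adding a pseudocount of 1, log2 values entered limma 3.58.1 (lmFit and then eBayes with trend, R 4.3.3) over genes with a mean of at least 10, with 4 groups and 1 spread. Tests were 2-sided, and p was adjusted by Benjamini and Hochberg within each comparison. The fit was run on simulated counts that had the same spread setting in every gene and group and no outlying library. That simulation does not show how the fit behaves where groups differ in spread. The unit differs from the counts that the study's DESeq2 calls used, so that DESeq2 1.42.0 and edgeR 4.0.16 on recovered reads are alternatives. The others were pseudocounts of 0.1 and 5, every gene above 0, a mean of at least 100, equal totals, equal upper quartiles, quantile normalization, TMM scaling, 4-library fits, a 2-fold or unadjusted threshold, a term for the replicate number and each library left out.

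Members and lists were chosen with earlier results of these data known. Genes named are the 9 members, Stim1 and Stim2, up to 4 genes per list called by genotype or else the gene of the list furthest from 0, and the 3 genes most like each member. Further list genes named for stimulation were chosen after their values were seen. Pathway lists were methylation upkeep, methyl-CpG readers, demethylation and repair, methyl donor supply, PRC2, PRC1, H3K27 demethylases, S phase, E2f factors and Treg genes with an unmethylated region. Marker lists were Treg, B, myeloid, CD8 T and NK, and erythroid cells and neutrophils.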

Additional observations from a re-analysis of the deposited data

How the results depend on the processing

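Of the 9 members, 2 were called lower in unstimulated deficient-labelled cells. The count was 3 with DESeq2 or unadjusted p, 1 with every gene above 0, equal totals, equal upper quartiles, quantile normalization, edgeR or the 4-library fit, and 0 to 2 with a library left out. The higher count of 0 was 1 with equal upper quartiles or DESeq2, 2 with unadjusted p, and 0 to 2 with a library left out. In stimulated cells the counts of 0 became 3 lower and 1 higher with unadjusted p, where 1072 and 864 of all genes passed. With stimulation, the count of 1 higher in WT cells was 2 with equal totals, the 4-library fit or unadjusted p and 0 to 1 with a library left out. In deficient-labelled cells the 2 higher were 3 with DESeq2, a mean of at least 100, equal totals, unadjusted p or the replicate block, 1 with the 4-library fit and 1 to 2 with a library left out, and the 1 lower was 1 to 2. The interaction gave 1 higher member with unadjusted p. Uhrf1 in unstimulated cells lost its call in 2 of 17 alternatives. A replicate block, run where both groups share numbers 1 and 2, gave 1 lower member by genotype in stimulated cells, Ezh2 (adjusted p = 0.0467), and a call of Dnmt3b in deficient-labelled cells (0.92, adjusted p = 0.0494), and moved the calls over all genes from 17 to 202 lower and from 25 to 191 higher. Deviations of same-numbered samples correlated at 0.167 and 0.257, but the labels do not tie a number to a batch. No paired analysis was possible in unstimulated cells because the genotypes share no number.

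Signs turned for values near 0. By genotype in unstimulated cells, Dnmt3a became 0.05, 0.10 and 0.05 with equal totals, equal upper quartiles and quantile normalization, Ezh1 0.03, 0.07 and 0.05, and Stim2 0.02 and 0.01 with the latter 2. With a library left out, Dnmt3a ranged from -0.16 to 0.03, Dnmt3b from -0.17 to 0.36 and Ezh1 from -0.28 to 0.09. In stimulated cells Kdm6b became -0.03 with quantile normalization, and with a library left out the ranges were -0.10 to 0.49 for Dnmt3b, -0.09 to 0.04 for Tet2, -0.05 to 0.28 for Tet3, -0.12 to 0.14 for Kdm6b, -0.12 to 0.04 for Rbbp7 and -0.35 to 0.07 for Tnfrsf18. With stimulation in WT cells, Dnmt1 became 0.51, 0.06 and 0.39 in the 3 scalings, Dnmt3a 0.44 and Tet2 0.38 with equal totals, 0.31 and 0.30 with quantile normalization, and Ezh1 0.16 with equal totals. Left-out ranges were -0.26 to 0.24 for Dnmt1, -0.17 to 0.01 for Dnmt3a, -0.29 to 0.02 for Tet2 and -0.12 to 0.21 for Tet3. In deficient-labelled cells Tet2 became -0.05 with equal upper quartiles and Ezh1 0.24 with equal totals, and the ranges were -0.06 to 0.56 for Dnmt1, -0.09 to 0.16 for Tet2 and -0.33 to 0.04 for Ezh1. In the interaction Dnmt1 became 0.00 with quantile normalization (left-out range -0.05 to 0.57), Dnmt3b -0.02 and -0.05 with equal totals and upper quartiles (-0.19 to 0.40), and Tet1 ranged from -0.27 to 0.63. The causes were not tested.

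Over all genes, the 517 lower and 213 higher calls in unstimulated cells were 255 and 83 in the 4-library fit, 810 and 511 by DESeq2, 353 and 131 by edgeR, and 8 to 924 and 0 to 374 with a library left out. In stimulated cells DESeq2 gave 287 and 238, edgeR 0 and 1, and left-out fits 0 to 551 and 0 to 211. With stimulation, left-out fits gave 580 to 843 lower and 344 to 505 higher in WT and 1324 to 2104 and 1196 to 2125 in deficient-labelled cells, where the 4-library fit gave 872 and 880. The interaction gave 0 to 17 and 0 to 179 with a library left out. Equal totals moved the median of all genes by 0.12 by genotype in unstimulated cells and by 0.51 and 0.38 with stimulation, and upper quartiles by 0.16 in the first. With 30 to 91 reads of Uhrf1 in the unstimulated deficient-labelled libraries, counting error widens its fold change.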
